A study of Mus musculus with 8 samples.

Results

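The genes described here are 41 mouse genes that copy DNA or control its copying: the factors that license and fire replication origins, the MCM helicase, the replicative polymerases, the sliding clamp and its loader, E-type cyclins, 5 E2F transcription factors and the enzymes of deoxynucleotide supply. The list was drawn up by name with earlier results of these data known, and the rule that assigns peaks to the genes uses no measured level. The readout is H3K27Ac, an acetylation of histone H3 found at active promoters and enhancers, measured by ChIP-Seq in mouse ventricles at postnatal day 7 (P7). Controls were *Arid1a f/f* animals without Cre, and mutants were *aMHC-Cre;Arid1a f/f* animals (*Arid1a cKO*), so that both groups carry the floxed *Arid1a* alleles and only the mutants carry the Cre. Each group had 2 H3K27Ac libraries and 2 input libraries, 8 in all. The aMHC promoter drives Cre in cardiomyocytes, whereas the ventricles were taken whole and hold fibroblasts, endothelial cells, smooth muscle cells and leukocytes as well.

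The deposited table lists 45987 H3K27Ac peaks with a mean over the hearts of each group and no value of a single heart. All levels below are therefore group means in normalized reads, and all differences are the log2 concentration in *Arid1a cKO* minus that in controls. No spread between hearts, standard error or p-value could be computed, library depths are unknown, and whether a difference exceeds the spread between hearts cannot be told. Differences are described by size, and a peak was counted as higher or lower when the group means differed at least 1.5-fold, and a smaller step of 0.32 on the log2 scale is used where stated. In whole ventricles a different share of a cell type and a different level of the mark per cell cannot be told apart. The peak over the *Arid1a* start held 1607 reads in the control mean and 1663 in the mutant mean, which does not check the deletion, since acetylation at a promoter can persist when exons further along the gene are lost.

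In background, the origin recognition complex binds chromatin and, with CDC6 and CDT1, loads the ring-shaped MCM helicase in G1. The kinase pair CDC7 and DBF4 and the cyclin E kinases then let CDC45 and GINS join the ring, which fires the origin in S phase. E2F factors, released from the retinoblastoma proteins by cyclin-dependent kinases, drive transcription of most of these genes at the G1 to S transition, and E2F7 and E2F8 later repress it. Cardiomyocytes of the mouse go through a last round of DNA synthesis in the first days of life and then largely leave the cell cycle.

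Each of the 41 genes had an H3K27Ac peak over at least 1 of its curated RefSeq transcription starts. Of the 45980 peaks on assembled chromosomes (GRCm38.p6), 78 had their centre nearest to a start of a member. These 78 peaks belonged to 39 of the 41 genes, because the peaks over the starts of *Orc1* and *Pole* had their centres nearer to *Prpf38a* and *Pxmp2*. Promoter peaks, with the centre between 1000 bp upstream and 100 bp downstream of a start, numbered 19, from 19 genes. Another 21 peaks covered a start with the centre outside that window, in each case downstream of the start, and 38 lay away from starts. To describe every gene, the strongest peak over any of its starts is used below and called its start peak.

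Start peaks of the replication and E2F genes were of moderate strength. They had a median width of 1961 bp and a median of 67.2 normalized reads in controls, against 2207 bp and 151 reads for all 12022 peaks over a start. Per kilobase of peak, controls held a median of 40.0 reads at the members and 62.3 at all peaks over a start. Acetylation per kilobase ranged from 13.8 at *Cdc6* and 15.7 at *Mcm10* to 110 at *Cdc45*, 110 at *E2f3*, 149 at *Orc6* and 158 at *Rfc4*.

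Acetylation over the starts of these genes was higher in *Arid1a cKO* than in control ventricles at 33 of 41 genes and lower at 8. The median difference was 0.16, with the middle of the distribution between 0.06 and 0.37, and the extremes were -0.30 at *Pole* and 0.68 at *Cdc6*. Over all peaks that cover a start, the median was 0.01 and 50.1% were above 0, and with 1 start peak for each of 13464 genes it was 0.00 with 49.8% above 0. A 1.5-fold higher level was reached by 2 start peaks, those of *Cdc6* and *Ccne1*, and a 1.5-fold lower level by 0. Among all peaks over a start, 4.43% were at least 1.5-fold higher and 4.18% at least 1.5-fold lower, so the count of large differences was near the background. By a log2 difference of 0.32 or more, 11 members were higher and 0 lower, where 12.2% and 10.3% of all peaks over a start passed.

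**Figure D1:**
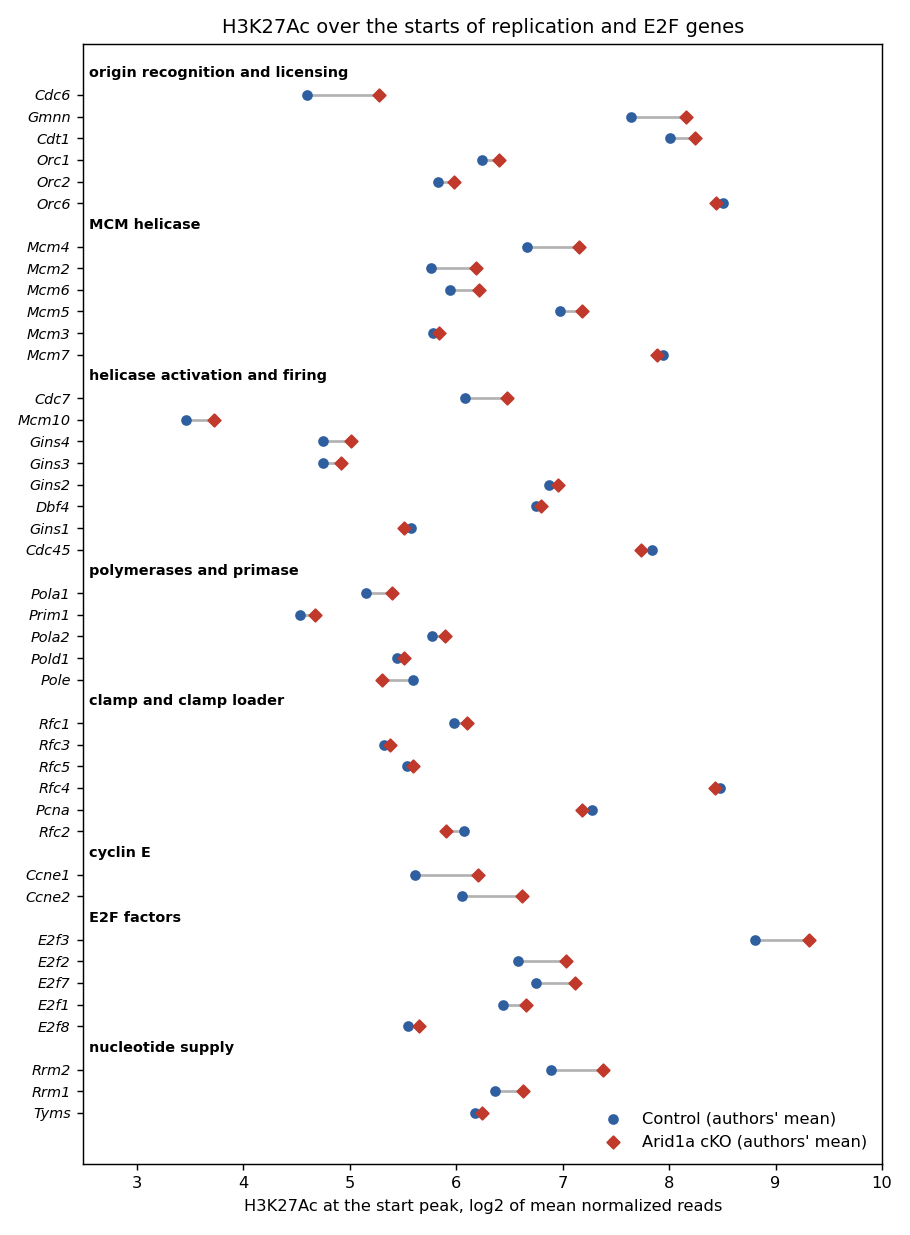
H3K27Ac at the start peak of each of the 41 genes, grouped by role. The horizontal axis is the log2 of the mean normalized reads, circles are the control mean and diamonds the *Arid1a cKO* mean, each over 2 hearts with no error available, and the diamond lies to the right of the circle at 33 genes, with the longest shift at *Cdc6* (0.68).

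**Figure D2:**
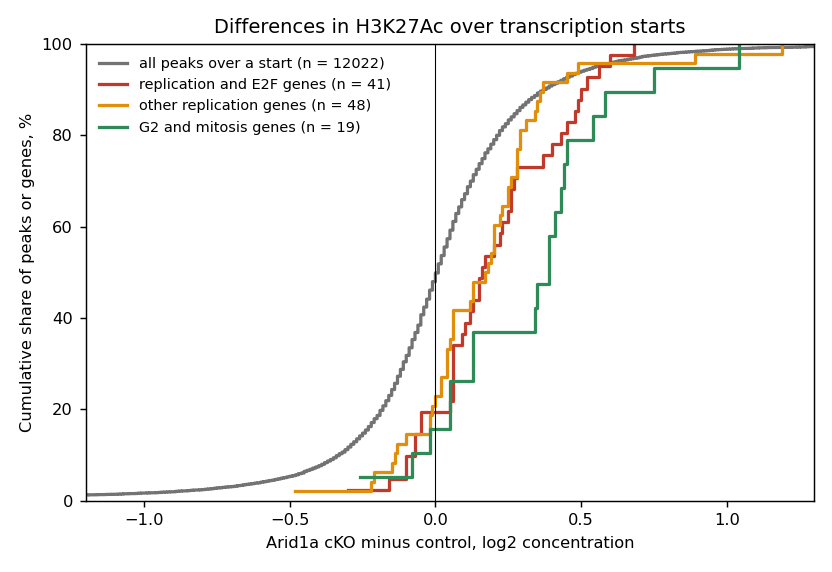
Cumulative share of start peaks, in percent, against the log2 difference, *Arid1a cKO* minus control. The curve of the 41 replication and E2F genes lies to the right of the curve of all 12022 peaks over a start through its middle, with medians of 0.16 and 0.01, and meets it near the upper end, and 217 peaks outside the drawn range are not shown.

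The modest size of the differences has to be read against peak strength, since weak peaks scatter more between group means. The median difference of all peaks over a start also fell from the weakest to the strongest range below. Member start peaks had a median log2 concentration of 6.21, against 7.24 for all peaks over a start. The median of 0.01 over all of these is therefore not matched to the members in strength. The members were divided into 3 bins by overall log2 concentration. In the weakest bin, from 3.60 to 5.86, the 14 member start peaks had a median difference of 0.115 beside 0.13 for all 2340 peaks over a start in that range. There, 1 of the 14 was higher by at least 0.32, whereas 30.9% of all peaks in the range were. In the middle bin, up to 6.81, the 13 members had a median of 0.22 beside 0.05 for all 2191 peaks, and 4 of them passed 0.32 beside 15.6% of all. In the strongest bin, up to 9.08, the 14 members had a median of 0.215 beside -0.01 for all 5956 peaks. Here 6 of the 14 passed 0.32, which 4.75% of all peaks in that range did. Set beside start peaks of like strength, the share of members past 0.32 was lower in the weakest bin. It was higher in the middle and strongest bins, and no test of these shares was run.

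**Figure D3:**
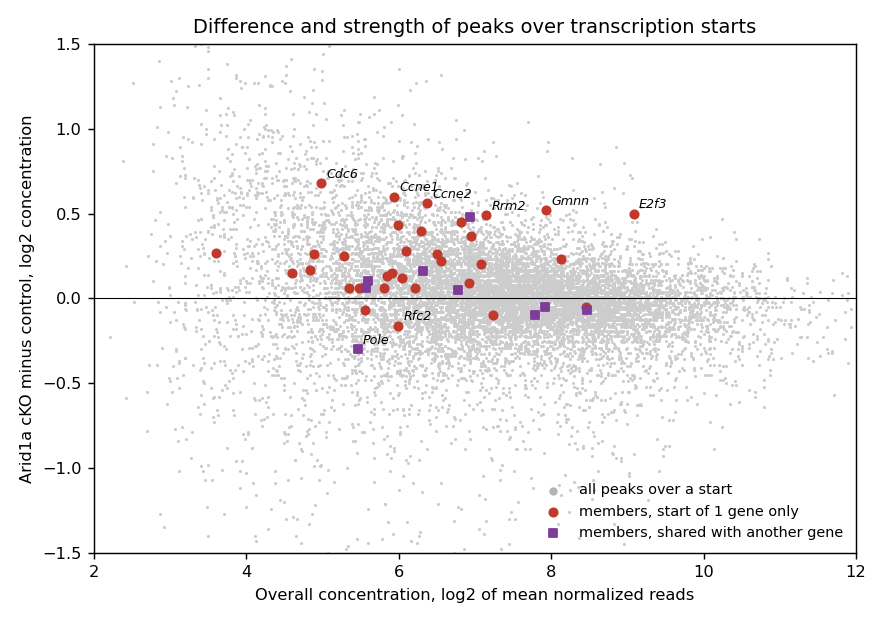
Log2 difference, *Arid1a cKO* minus control, against overall log2 concentration for all peaks over a start (grey) and for the 41 member start peaks. Circles are members whose peak covers the start of 1 gene only and squares are peaks shared with another gene, the strongest members well above 0 are *Gmnn* (0.52) and *E2f3* (0.50), and 152 peaks outside the drawn range are not shown.

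Of the 41 start peaks, 9 also covered the start of another gene, and for these the signal cannot be assigned to either gene. The shared peaks were those of *Mcm4* (with *Prkdc*), *Orc1* (*Prpf38a*), *E2f8* (*Gm2788*), *Rfc5* (*Gm15728*), *Dbf4* (*Slc25a40*), *Mcm7* (*Ap4m1*), *Orc6* (*Vps35*), *Cdc45* (*Ufd1*) and *Pole* (*Pxmp2*). Their median difference was 0.05, with 5 above 0 and 4 below. All 1917 shared start peaks had a median of -0.01, with 47.68% above 0. The 32 peaks over the start of 1 gene had a median of 0.225, with 28 above 0 and 4 below. All 10105 such peaks had a median of 0.01, with 50.6% above 0.

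Promoter sequences show what these genes share beyond their names. RefSeq promoter windows (GRCm38.p6, 250 bases before to 50 after a start) matched 33 of the 41 genes, with 38 windows. The genes without a window were *Mcm4*, *Gins1*, *Gins2*, *Gins4*, *Rfc2*, *Pole*, *Ccne2* and *Gmnn*. An E2F core, searched on either strand as TTCCCGC or TTGGCGC or with TTCGCGC or TTGCCGC instead, was found in 23 of the 38 windows, or 60.5%. The same letters occurred in 9.57% of all 32851 promoter windows and in 16.35% of the 14277 windows whose start lies in an H3K27Ac peak. The longer form with 1 more T in front was in 36.8% of the member windows, 2.265% of all and 3.992% of those in a peak. The GC content of members and of windows in a peak was alike, with medians of 61.3% and 60.7%, against 52.7% for all windows. The CCAAT letters stood in 65.8% of member windows beside 36.3% of windows in a peak, and the CHR letters (TTTGAA or TTCGAA), which can overlap other motifs, in 28.95% beside 13.5%. The E-box CACGTG, at 10.5% beside 9.64%, was about as frequent in the members as elsewhere, and CATTCC, the core bound by TEAD factors, stood in 5.26% beside 12.4%. The list was chosen to hold E2F targets, so the E2F share describes the list and was not tested.

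A selection of the matches is printed below, first from genes whose start peaks differed by 0.20 to 0.68 and then from *Rfc4*, *Mcm7* and *Rfc3*, which differed by -0.05 to 0.06. The selection was made with the values known and leaves out further matches. Left out are those at *E2f2* (0.45), *Pola1* (0.25) and *Cdt1* (0.23). Also left out are those at genes with smaller differences, namely *Gins3* (0.17), *Orc1* (0.16), *Prim1* (0.15), *Rfc1* (0.12), *E2f8* (0.10), *Mcm3* (0.06) and *Pold1* (0.06). Of the printed genes, *E2f3*, *Cdc7*, *E2f7*, *Mcm6*, *Mcm5* and *Mcm7* have further matches that are not printed. The printed lines therefore do not show how cores and differences go together. Each sequence runs 5′ to 3′ on the gene's own strand, with 10 bases on either side and the core in capitals. Where 2 matches overlap, the capitals run over both. The right flank of the *Rfc3* sequence holds a second, separate core that begins at the start itself and is left in lower case. Coordinates are in GRCm38.p6, and the distance is from the first base of the match to a curated start.
Cdc6, chr11:98908003-98908029, plus strand, 138 bases before a start: ccggtggagaGCGGGAAatcgcctggg
E2f3, chr13:29986058-29986084, minus strand, 11 bases before a start: tgaaaagccgGCGGGAAatctgagttt
Rrm2, chr12:24708009-24708035, plus strand, 235 bases before a start: accaacctcaGCGGCAAcgcccgcccg
Cdc7, chr5:106964516-106964542, plus strand, 35 bases before a start: gcatcccgcgGCGGGAAgaggtgcgcc
E2f7, chr10:110745231-110745257, plus strand, 198 bases before a start: ccgcgtccccGCGGGAAacgctcccgc
E2f7, chr10:110745337-110745363, plus strand, 92 bases before a start: gcggcgccgaGCGCCAAgacagcgagg
Mcm6, chr1:128359795-128359824, minus strand, 109 bases before a start: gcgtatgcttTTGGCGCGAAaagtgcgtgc
Mcm6, chr1:128359732-128359761, minus strand, 46 bases before a start: ttggacgggtTTGGCGCGAAgtagctcagc
Rrm1, chr7:102441618-102441644, plus strand, 67 bases before a start: ggagaactcgTTCCCGCcaggtccgct
Mcm5, chr8:75109347-75109376, plus strand, 152 bases before a start: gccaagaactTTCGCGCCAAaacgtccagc
Rfc4, chr16:23127703-23127729, minus strand, 11 bases after a start: ccgttctgtgGCGGGAAccgcggtgcc
Mcm7, chr5:138171847-138171876, minus strand, 17 bases after a start: gtgacgacgtTTCGCGCCAAtttcggttgg
Rfc3, chr5:151651201-151651227, minus strand, 9 bases before a start: gtcgcacgctTTCGCGCtcgcgggaaa
The first match, upstream of *Cdc6*, is the longer form when read on the opposite strand, and *E2f3* carries the same letters 11 bases before a start. *Mcm6* holds 2 overlapping pairs of cores within a short distance of each other. The *Mcm7* and *Rfc4* matches, at genes whose acetylation differed by -0.05, hold the same kind of letters as those of *Cdc6* and *Cdc7*. *Ccne1*, whose start peak was among the highest by difference, had no core in its window. Start peaks of the 21 genes with a core had a median difference of 0.20 and 6 of them passed 0.32. Those of the 12 genes with a window and no core had a median of 0.095 and 2 passed. Of all peaks over a start, 12.2% passed. The 8 genes without a window are in neither group and could change this contrast. Their start peaks ranged from -0.30 at *Pole* to 0.56 at *Ccne2*, with *Gmnn* (0.52) and *Mcm4* (0.48) also past 0.32. Both groups ranged widely, from -0.05 to 0.68 with a core and from -0.10 to 0.60 without. A match describes letters and not a bound site.

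Origin licensing genes ranged from -0.07 to 0.68. *Cdc6*, which loads the MCM ring onto origins, had a weak start peak (chr11:98906723-98908477) with 24.3 reads in controls and 38.9 in *Arid1a cKO*, a difference of 0.68. *Gmnn*, which encodes geminin, the inhibitor of CDT1 that blocks renewed licensing, had 199.5 reads in controls and 286 in *Arid1a cKO* (0.52, chr13:24760054-24763119). Its partner gene *Cdt1* had 258 and 302 reads (0.23). The origin recognition subunit genes differed less, with 75.6 and 84.5 reads at *Orc1* (0.16), 56.9 and 63.1 at *Orc2* (0.15) and 365 and 347 at *Orc6* (-0.07). Together 5 of the 6 licensing genes were above 0, with a median of 0.195.

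The MCM helicase genes, which encode subunits of 1 ring, did not have equal differences. *Mcm4* had 102 reads in controls and 142 in *Arid1a cKO* (0.48), in the peak it shares with *Prkdc* at chr16:15636358-15638637. *Mcm2* had 54.2 and 73.0 reads (0.43, chr6:88897884-88899594), with no other gene start in its peak. *Mcm6* followed with 61.4 and 74.5 reads (0.28) and *Mcm5* with 126 and 145 (0.20). *Mcm3* was nearly level at 54.95 and 57.3 reads (0.06), and *Mcm7*, at 246 and 237 reads, was slightly lower (-0.05). The median over the 6 subunits was 0.24 and their summed reads were 644 in controls and 729 in *Arid1a cKO*.

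Among the 8 genes of helicase activation and firing, 6 were above 0 and the median was 0.13. The largest difference was that of *Cdc7*, the catalytic subunit of the kinase that fires origins, with 67.7 and 89.3 reads (0.40, chr5:106963708-106965115). *Dbf4*, which encodes the activating subunit of the same kinase, had 108 and 111 reads (0.05). *Mcm10*, a factor needed to start unwinding, had the weakest start peak of all 41 genes, with 11.0 and 13.3 reads (0.27). The GINS subunit genes differed by 0.26 at *Gins4*, 0.17 at *Gins3*, 0.09 at *Gins2* and -0.07 at *Gins1*. *Cdc45*, with 229 and 214 reads (-0.10), was among the stronger and slightly lower peaks.

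Clamp and clamp loader genes had the median nearest to 0 of the role groups, at 0.005, and the polymerase genes had a median of 0.13. Of the polymerase genes, *Pola1*, the catalytic subunit of the primer-making polymerase, had 35.5 and 42.2 reads (0.25), *Prim1* 23.1 and 25.6 (0.15), *Pola2* 54.6 and 59.7 (0.13) and *Pold1* 43.7 and 45.6 (0.06). *Pole*, for the leading-strand polymerase, had the lowest difference of the set with 48.5 and 39.4 reads (-0.30), in the peak nearest to *Pxmp2*. The clamp gene *Pcna* had 155 reads in controls and 145 in *Arid1a cKO* (-0.10). The clamp loader genes lay between 0.12 at *Rfc1* and -0.16 at *Rfc2*, with 3 genes of clamp and loader above 0 and 3 below. *Rfc4*, at 357 and 345 reads (-0.05), had the most acetylation per kilobase in the set.

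Both E-type cyclins, which activate CDK2 at the entry into S phase, were higher in *Arid1a cKO*. *Ccne1* had 48.8 reads in controls and 74.0 in *Arid1a cKO* (0.60, chr7:38106740-38108717), and *Ccne2* had 66.7 and 98.4 (0.56, chr4:11190155-11192477). All 5 E2F factor genes were above 0, with a median of 0.37. *E2f3*, an activator needed for proliferation in many cells, had the strongest start peak of the 41 genes with 449 and 635 reads (0.50, chr13:29983261-29987342). Its peak is 4082 bp wide and covers more than 1 curated start of *E2f3*, so that the *E2f3* isoforms cannot be separated here. The other activators *E2f2* and *E2f1* had 95.7 and 131 reads (0.45) and 86.8 and 101 reads (0.22). Of the atypical repressors, *E2f7* had 108 and 139 reads (0.37) and *E2f8* had 46.85 and 50.2 (0.10).

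*E2f2* also had a peak over a second curated start inside the gene, at chr4:136179377-136181155 in an intron of the longer transcript. That peak held 24.3 reads in controls and 51.3 in *Arid1a cKO*, a difference of 1.08 and the largest of any peak over a member start. It is a weak peak, with an overall log2 concentration of 5.24. In the weakest bin above, 14.4% of all peaks over a start were at least 1.5-fold higher. Acetylation alone does not measure which start is used.

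For deoxynucleotide supply, *Rrm2*, the S-phase subunit of ribonucleotide reductase, had 119 and 167 reads (0.49, chr12:24706270-24710771). *Rrm1*, the constant subunit, had 82.7 and 99.0 reads (0.26), and *Tyms*, thymidylate synthase, had 72.5 and 75.6 (0.06).

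By the narrower promoter class, the 19 member peaks had a median difference of 0.25, with 15 above 0 and 4 below, beside a median of 0.01 for all 4695 promoter peaks, of which 51.8% were above 0. The 3 promoter peaks at least 1.5-fold higher were those of *Cdc6* and *Ccne1* and the second *E2f2* peak, and 0 were at least 1.5-fold lower. Of all promoter peaks, 4.71% were that much higher and 3.75% that much lower. The remaining 59 member peaks had a median of 0.15, with 3 at least 1.5-fold higher and 4 lower, beside 12.9% higher and 18.8% lower among all 41285 other peaks.

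Away from starts, the 38 member peaks had a median of 0.06, with 24 above 0, 13 below and 1 at 0. All 33958 peaks away from starts had a median of 0.02, with 50.8% above 0. At least 1.5-fold higher were 3 of them and lower were 4, while 14.7% and 22.0% of all peaks away from starts passed in each direction. The distal peaks near these genes thus held no more large differences than distal peaks at large. Nearest gene is a rule of distance and does not show that a peak acts on that gene.

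*Cdc7* had 12 of the 78 peaks, 11 of them away from its start, along the region between its start and *Tgfbr3*, and they differed in both directions. Higher in *Arid1a cKO* were an intergenic peak 25.4 kb from the start (chr5:106988743-106991269), with 26.0 reads in controls and 51.6 in *Arid1a cKO* (0.99), and a weak intergenic peak 116.7 kb away (chr5:107080977-107081629), with 4.72 and 9.99 reads (1.08). Lower were the strongest of the region, an intergenic peak 97.4 kb away (chr5:107060285-107063605) with 176 and 91.8 reads (-0.94), and a peak in an intron of *Tgfbr3* 146.6 kb away (chr5:107110799-107111450) with 14.0 and 6.64 reads (-1.08). The other large differences were at weak peaks. An intergenic peak 42.5 kb from *E2f7* (chr10:110787581-110788366) had 9.65 and 15.1 reads (0.65). An intronic peak of *E2f8*, 13.4 kb from its start (chr7:48867169-48868069), had 18.8 and 3.81 reads (-2.30), and an intergenic peak 25.4 kb from *Mcm5* (chr8:75134176-75135737) had 28.3 and 8.06 (-1.81). By contrast, the strongest distal peak of the set, in an intron of *Pola2*, had 549 and 568 reads (0.05), and the 2 stronger of the 4 intronic *E2f3* peaks, with 119 and 99.0 reads in controls, differed by 0.06 and 0.02.

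**Figure D4:**
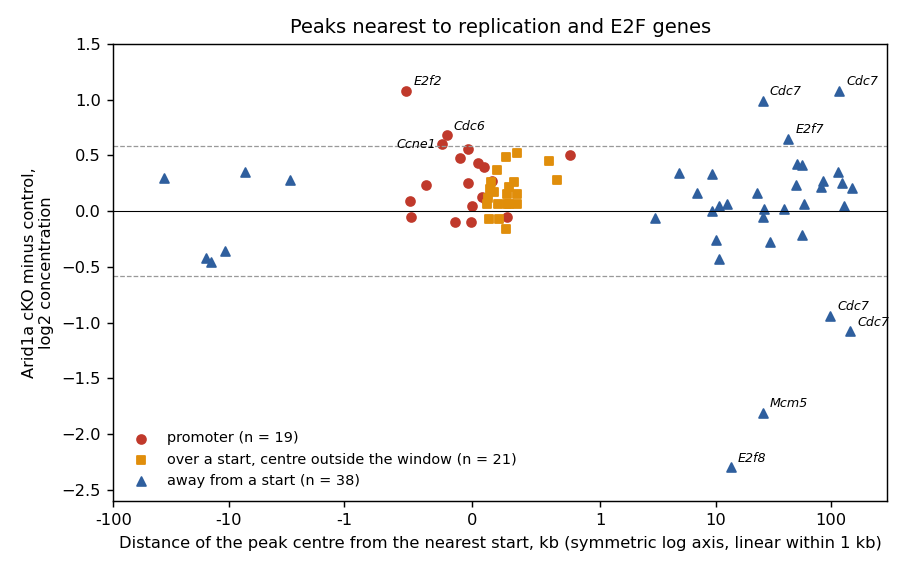
Log2 difference, *Arid1a cKO* minus control, of the 78 peaks nearest to a member gene against the distance of the peak centre from the nearest start in kb, on an axis that is linear within 1 kb and logarithmic beyond, positive into the gene or past it. Dashed lines mark 1.5-fold, circles near 0 kb are mostly above 0, and the peaks away from starts (triangles) spread from -2.30 to 1.08, and a circle can lie further than 100 bp downstream where the centre is upstream of another start of the gene.

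Other genes of replication and E2F control, taken from a list that does not overlap the 41, were read in the same way. Of 50 such genes, 48 had a start peak (*Ccna2* and *Tfdp1* had none), with a median difference of 0.175, 37 above 0, 10 below and 1 at 0. At least 1.5-fold higher were *Rnaseh2a*, a subunit of the nuclease that removes RNA from DNA, with 16.45 and 37.5 reads (1.19), and *Chaf1b*, a subunit of the chromatin assembly factor at forks, with 11.2 and 20.8 reads (0.89), and both are weak peaks. These 2 of 48 stand beside 4.43% of all peaks over a start. In the weakest bin above, 14.4% of all peaks over a start were that much higher. None were 1.5-fold lower, and past 0.32 in either direction there were 8 higher and 1 lower, the E2F partner gene *Tfdp2* with 128 and 91.8 reads (-0.48), beside 12.2% higher and 10.3% lower among all peaks over a start. Genes of G2 and mitosis, which are switched on after replication, had a larger median. Of 20 such genes 19 had a start peak (*Bub1* had none), with a median of 0.39, 16 above 0 and 3 below. *Ccnb1*, the mitotic cyclin, had 29.2 and 60.1 reads (1.04) and *Top2a*, the chromosome-untangling topoisomerase, 61.0 and 102.5 (0.75), while 12 of the 19 were higher by at least 0.32, again beside 12.2% of all peaks over a start. Of all peaks over a start, 50.13% were above 0. Whether the gene sets differ from each other was not tested.

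Markers of cell types in the ventricle differed between the groups as well. At cardiomyocyte genes, 7 of 9 start peaks were lower in *Arid1a cKO*, 1 was higher and 1 level. Their median was -0.22, with summed reads of 19490 in controls and 17560 in *Arid1a cKO*. The higher one was *Myh6* (0.13), with 3591 and 3929 reads. It encodes aMHC, whose promoter also drives the Cre that only the mutants carry. Whether the transgene adds reads to that peak was not tested. All 7 fibroblast start peaks were higher, with a median of 0.46 and sums of 1723 and 2422 reads, and *Col1a1* (0.71) and *Postn* (0.68) passed 1.5-fold. Endothelial start peaks had a median of 0.06, with 5 of 7 above 0 and sums of 7957 and 8235. Smooth muscle and pericyte genes had a start peak at 4 of 5 (not at *Myh11*), with 3 above 0 and 1 below. Their median was 0.54, with sums of 1400 and 1815 reads, but the genes were split. *Tagln* (1.09, a weak peak with 15.6 reads in controls) and *Acta2* (0.89) were higher, while *Pdgfrb* (0.19) and *Rgs5* (-0.02) differed little. The paper describes *Acta2* as a gene that normally falls as the heart matures after birth. None of the 6 leukocyte markers had a start peak. The part of cell composition in the differences at replication and E2F genes was not tested.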

How the data were processed

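Antibody and input libraries were made from P7 ventricles of 2 animals per genotype. For these files the authors aligned reads by BWA (0.7.17-r1188) against mm10. Peaks came from HOMER findPeaks in histone style, with all inputs merged as the reference, and had to be present in at least 2 samples. DiffBind (2.12.0) with DESeq2 (1.24.0) was the authors' tool for comparing genotypes. The deposited values used here are log2 concentrations, the log2 of the mean normalized reads of a peak over a group. The scaling of libraries and the treatment of inputs in these values are not given in the sources used here, and depth per sample is unknown. The fold change, p-value and FDR columns hold the authors' own comparison and were not used. Samples were grouped by genotype and antibody in the labels.

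Differences are the *Arid1a cKO* concentration minus that of controls, and no test was run. Peaks were assigned to the nearest of 45755 curated RefSeq transcripts' starts (GRCm38.p6, the mm10 assembly, with the last peak of each of 21 chromosomes inside its length), and 7 peaks on unplaced sequences were left out. A start peak is the peak of highest overall concentration over any start of a gene. Promoter windows are those of RefSeq, and overlapping motif matches were merged for printing. Named are all members, their peaks that differ at least 1.5-fold, and the other listed genes past 1.5-fold. *Tfdp2* and the strongest distal peaks were chosen after their values were seen. Members and lists were chosen with earlier results of these data known. Alternatives were the promoter window, the transcript set, centring, filters on weak peaks and on group means at or under 3 reads, sex chromosomes, 1 peak per gene and the fold threshold. Steps were checked on simulated data with known answers, in Python 3.11.15 with numpy 2.4.6, pandas 2.3.3 and matplotlib 3.10.9.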

Additional observations from a re-analysis of the deposited data

How the results depend on the processing

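The deposited means cover 2 hearts a group, so that no heart could be left out and no spread computed. No paired analysis was possible because the table holds only group means. Neither median changed sign under the alternatives run. Higher and lower peaks among the other member peaks numbered 3 and 4 at 1.5-fold, and 13 and 8 at a log2 difference of 0.32. With all RefSeq transcripts they numbered 1 and 1. Shares of all promoter peaks and all other peaks past 0.32 or 2-fold were not computed. The counts at those thresholds in this section therefore have no background beside them and show no shift in balance. The median of the member promoter peaks, 0.25, was 0.185 with a window of 1000 bp or of 2500 bp on both sides (40 peaks), 0.165 over peaks that cover a start (42 peaks), 0.24 after subtracting the median over all peaks or over all promoter peaks and without the weakest peaks (the lowest 0.25 of all by concentration), and 0.335 without peaks over starts of 2 or more genes, an alternative chosen after seeing the data. The genes with a higher promoter peak, 15 of 19, became 32 with either wider window (40 peaks) and 33 of 41 over covered starts. The wider settings take in more genes, so the counts are not to be compared as such. With 1 start peak for each of all genes, 49.76% were above 0. That share was not computed for the wider windows. Promoter peaks counted as higher, 3 at 1.5-fold, were 8 at a log2 difference of 0.32 and 1 at 2-fold, and none were lower at any of these.

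The median of the other member peaks, 0.15, was 0.06 with either wider window, without the weakest peaks and with 1 peak per gene, and 0.14 after either centring. Their count of higher peaks, 3, was 1 with all RefSeq transcripts, without the weakest peaks and at 2-fold, and 13 at 0.32. Their count of lower peaks, 4, was 1 with all RefSeq transcripts and without the weakest peaks, and 8 at 0.32. Adding transcripts moves peaks to other nearest genes (33 other peaks were left), and most of the large differences lay in the weakest peaks left out. Leaving out chromosomes X and Y kept 18 promoter and 58 other peaks, left both medians as they were and moved no count by more than 1. No member peak had a group mean at or under 3 reads, so that filter removed nothing and could not change a result.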

Other observations

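Around the replication and E2F genes, 104 further peaks lay within 50 kb of a member start but nearer to a start of another gene. Their median difference was -0.02, with 7 at least 1.5-fold higher and 12 lower, beside 5528 higher and 7957 lower among all 45980 peaks, which are larger shares than those of the 104. The sets were not matched for the share of peaks over a start. Such peaks passed less often (4.43% and 4.18%) than peaks away from starts (14.7% and 22.0%). The peaks named next were chosen after their values were seen. A peak 25.9 kb from *Gmnn* and nearest to *Armh2* (chr13:24733831-24738238) had 78.3 reads in the control mean and 254 in the mutant mean (1.70), in the same direction as the *Gmnn* start peak (0.52). Near *Cdc6*, a peak 34.9 kb away and nearest to *Wipf2* (chr11:98870675-98875184) had 187 and 79.3 reads (-1.24), opposite to the *Cdc6* start peak (0.68). A peak 48.5 kb from *Mcm2* and nearest to *Gm15612* (chr6:88849228-88851315) had 43.7 and 9.51 reads (-2.20), also opposite to the *Mcm2* start peak (0.43). A pair of peaks nearest to *Mir7687* lay 32.85 kb and 45.3 kb from *Gins2*, with 190.0 and 94.35 reads (-1.01) and with 31.6 and 9.99 reads (-1.66), while the *Gins2* start peak differed by 0.09. Which genes these peaks act on was not measured.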
